A study of Homo sapiens with 18 samples.

Results

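Metallothioneins are small cysteine-rich proteins that bind zinc, copper and cadmium and buffer the free metal of the cell. Their genes are switched on by the zinc-sensing transcription factor MTF1, which binds short metal response elements in their promoters, and the same factor drives SLC30A1, the transporter (ZnT1) that exports zinc across the plasma membrane. Metallothionein RNA is therefore widely read as a record of metal load, although glucocorticoids and oxidants also raise it. The gene set described here holds 8 of the 60683 gene rows of each table, picked by gene symbol: the metallothioneins MT2A, MT1E, MT1F, MT1G, MT1M and MT1X, the exporter SLC30A1 and the regulator MTF1. The set was proposed with measured values of these libraries in view, and the comparison that led to it is not recorded. The members' differences are therefore given as a description, and adjusted p-values come from fits across all genes.

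All 18 libraries, 3 in each of 6 groups, were made from poly(A) RNA of HCT-116, a widely used cell line from a human colorectal carcinoma. The first table held Actin KO cells carrying an empty construct, Actin KO cells that over-express either wild-type actin (ACTB-WT) or the H73A actin mutant (ACTB-mut), so all 3 of these groups carry the actin knockout. In the other table a control, SETD3 CT, stood beside the knockouts SETD3 KO1 and SETD3 KO2, none of which is labelled with an actin knockout; SETD3 is the methyltransferase that modifies the actin histidine replaced in the mutant. All groups grew in DMEM with fetal bovine serum, and no group is labelled with an added metal. The labels do not state whether replicates were separate cultures or how many clones each line represents, so a p-value here reflects only the spread among these samples, which may be technical. The cell line label of SETD3 KO2 replicate 3 reads HCT-117.

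Library totals ran from 3389586 counts (SETD3 KO2 replicate 1) to 11652967 (SETD3 KO2 replicate 3). Levels are CPM, counts scaled to a common library size (TMM) over all 18 libraries. Actin KO libraries had 19.2 ± 5.5 CPM of ACTB (SD, n = 3), ACTB-WT libraries 28.2 ± 4.3 and ACTB-mut libraries 41.0 ± 8.0, against 957 to 1343 CPM in the SETD3 groups. For SETD3, the control averaged 21.4 ± 12.1 CPM, KO1 9.95 ± 5.99 and KO2 21.5 ± 5.9. SETD3 RNA overlapped between SETD3 CT (13.6 to 35.4 CPM) and both knockouts (6.24 to 16.9 in KO1, 15.5 to 27.3 in KO2), and ACTB RNA overlapped between Actin KO (15.1 to 25.4) and ACTB-WT (23.3 to 31.5). In ACTB RNA, all ACTB-mut libraries lay above all Actin KO libraries. ACTB RNA was far lower in the groups labelled with the actin knockout than in the SETD3 groups. That is the direction of the label, but knockout label and table cannot be told apart. SETD3 RNA does not check the SETD3 labels, and ACTB RNA does not check the ACTB-WT label. Group names here are those of the labels, and every direction below is between libraries so labelled. The summed level of 10 colorectal epithelial markers was 6274 to 10638 CPM over the libraries, while VIL1, CDH17 and LGALS4 were each at 0 in every library of at least 1 group. Most of that sum was KRT18, KRT8 and EPCAM, with means of 4612, 2551 and 556 CPM in Actin KO. In the same group CDX2 averaged 23.8 CPM, KRT20 0.557 and CEACAM5 0.0173. Summed fibroblast, blood, liver and kidney, and neural markers stayed at or below 35.3 CPM in each list.

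The 6 metallothionein members lie in 1 cluster on chromosome 16 (GRCh38, GENCODE 29), spanning 76.0 kb. In order they are MT2A (chr16:56608199-56609497, plus strand), MT1E (chr16:56625475-56627112, plus), MT1M (chr16:56632233-56633986, plus), MT1F (chr16:56657694-56660698, plus), MT1G (chr16:56666731-56668065, minus) and MT1X (chr16:56682424-56684196, plus). SLC30A1 (chr1:211571568-211578742, minus) and MTF1 (chr1:37809567-37859620, minus) lie apart on chromosome 1. All are annotated as protein-coding.

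The promoters below are shown because they hold the feature that ties the family to MTF1, and because the number of such elements can be set beside each gene's RNA. They are the 250 bases before the RefSeq start (RefSeq, GRCh38.p14), written 5′ to 3′ on the gene's strand, with matches to the metal response element core TGCACNC or TGCGCNC, on either strand, in capitals. MT1H is shown as a metallothionein outside the set. The MT2A window is chr16:56608334-56608583 (plus), MT1X chr16:56682220-56682469 (plus), MT1H chr16:56669564-56669813 (plus) and SLC30A1 chr1:211579162-211579411 (minus); the GENCODE 29 model of MT2A begins upstream of its window.
MT2A: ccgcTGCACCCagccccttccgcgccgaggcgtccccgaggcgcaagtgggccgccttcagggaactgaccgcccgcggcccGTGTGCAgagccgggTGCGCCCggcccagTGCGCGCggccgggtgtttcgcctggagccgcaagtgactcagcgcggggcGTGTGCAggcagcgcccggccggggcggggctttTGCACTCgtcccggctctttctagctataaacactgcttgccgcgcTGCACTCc
MT1X: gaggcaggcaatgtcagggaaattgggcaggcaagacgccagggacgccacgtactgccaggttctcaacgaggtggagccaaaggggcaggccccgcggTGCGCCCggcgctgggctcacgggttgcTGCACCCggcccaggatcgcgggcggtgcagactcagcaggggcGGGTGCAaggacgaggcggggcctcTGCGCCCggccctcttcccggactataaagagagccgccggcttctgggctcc
MT1H: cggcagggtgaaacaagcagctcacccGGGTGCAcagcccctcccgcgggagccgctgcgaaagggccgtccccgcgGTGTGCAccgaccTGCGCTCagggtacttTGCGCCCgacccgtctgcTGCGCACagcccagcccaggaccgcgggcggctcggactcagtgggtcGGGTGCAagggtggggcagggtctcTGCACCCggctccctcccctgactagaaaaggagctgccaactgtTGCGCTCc
SLC30A1: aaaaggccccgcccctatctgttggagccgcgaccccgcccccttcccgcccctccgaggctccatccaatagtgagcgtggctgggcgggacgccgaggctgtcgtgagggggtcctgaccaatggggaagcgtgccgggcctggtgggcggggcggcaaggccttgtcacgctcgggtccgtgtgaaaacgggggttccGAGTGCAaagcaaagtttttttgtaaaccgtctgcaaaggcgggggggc

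The MT2A window held 7 matches, MT1X 4, MT1H 8 and SLC30A1 1. The MTF1 window held 0, and MT1B, another family row, held 3. No match overlapped another. RefSeq windows were matched for 4 of the 8 members, MT2A, MT1X, SLC30A1 and MTF1. Of 35116 RefSeq promoter windows of this length, 24.8% held at least 1 match, 1.58% at least 3 and 0.37% at least 4, and 11 windows held at least 7. A single match, as in SLC30A1, was thus common, whereas the counts in MT2A and MT1H were among the highest of all windows. The SLC30A1 window lies wholly upstream of the GENCODE model of that gene, and the bases between them were not in the window. Its count therefore does not cover the bases next to the GENCODE start. A plus-strand match was centred 51 bases before the start in MT2A and 50 bases before it in MT1X, MT1H and MT1B. MT1H, with 8 matches, had no count in any of the 18 libraries, so a high element number alone did not go with a high RNA level. MT2A with 7 was the most abundant, MT1X with 4 was near 31.3 CPM and MT1B with 3 was near 0.0504 CPM. The abundant MT1E had no window, so a relation of element number to RNA level was not tested.

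**Figure D1:**
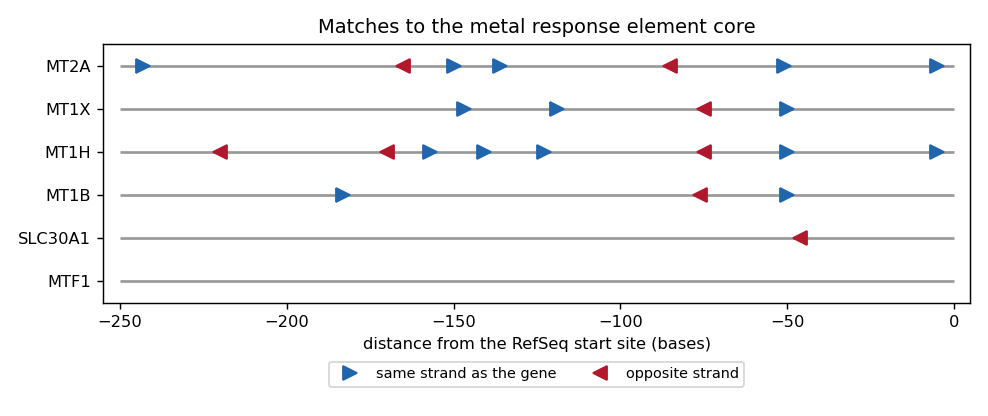
Positions of matches to the metal response element core in the 250 bases before the RefSeq start of 6 genes; the x axis is distance from the start in bases, and triangles point right for the gene's strand and left for the opposite strand. MT2A shows 7 matches, MT1H 8, MT1X 4, MT1B 3, SLC30A1 1 and MTF1 none.

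MT2A and MT1E made up nearly all of the family's RNA. Of 20 metallothionein rows, 16 had any count. MT2A held 63.2% and MT1E 35.4% of all family counts, and together they held at least 98.2% in every library. By mean CPM, MT2A ranked 80 and MT1E 125 among 60683 rows. On the scale of mean CPM per kb of the longest coding transcript, the level was 2449 for MT2A, 1466 for MT1E, 58.1 for MT1X and 10.0 for MT1F. On the same scale it was 0.448 for MT1G, 0.0127 for MT1M, 1.30 for MTF1 and 0.631 for SLC30A1. The metal buffer was thus expressed far above the genes for its regulator and for the exporter. The family took between 0.187% (SETD3 KO2 replicate 3) and 0.433% (ACTB-mut replicate 2) of a library's counts.

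MT2A is the most widely expressed human metallothionein. Its Actin KO libraries read 2833, 2845 and 2810 CPM, its ACTB-WT libraries 1714, 1776 and 1606, and its ACTB-mut libraries 2388, 2716 and 2209. The 3 ACTB-WT libraries were lowest and the 3 Actin KO libraries highest, and none of these 3 groups overlapped another. In the SETD3 table the control libraries read 1889, 2485 and 2296 CPM of MT2A, those of KO1 1355, 1311 and 1208, and those of KO2 1220, 992 and 991. All 6 knockout libraries lay below all 3 control libraries, and KO1 and KO2 overlapped. Group means were 2829 ± 17.8 CPM (SD, n = 3) in Actin KO, 2438 ± 257 in ACTB-mut, 2223 ± 304 in SETD3 CT, 1699 ± 85.8 in ACTB-WT, 1291 ± 75.3 in KO1 and 1068 ± 132 in KO2. In that order, ACTB-mut and SETD3 CT overlapped, as did KO1 and KO2; the other neighbours did not. Between the tables, genotype and table cannot be told apart, so order across them is only a description.

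For MT1E, a metal-inducible isoform, the Actin KO libraries read 1279, 1301 and 1453 CPM, the ACTB-WT libraries 914, 1081 and 858, and the ACTB-mut libraries 1496, 1557 and 1253. The ACTB-WT libraries again lay below both other groups, while Actin KO and ACTB-mut overlapped. The SETD3 CT libraries read 964, 1236 and 891 CPM, the KO1 libraries 826, 763 and 888, and the KO2 libraries 900, 820 and 762. The control libraries lay just above KO1, by 891 against 888 CPM at the nearest, and overlapped KO2. Group means were 1344 ± 94.6, 951 ± 116 and 1436 ± 161 CPM in the actin table and 1030 ± 182, 825 ± 62.6 and 827 ± 69.4 in the SETD3 table, with groups in the order just given.

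MT1X, another inducible isoform, stood at 49.1, 45.6 and 36.8 CPM with the empty construct, at 29.2, 21.2 and 18.8 with ACTB-WT, and at 60.1, 33.0 and 44.6 with ACTB-mut. ACTB-WT was again lowest with no overlap. It stood at 29.2, 58.0 and 28.05 CPM in the SETD3 control libraries, at 27.1, 14.2 and 12.7 in those of KO1 and at 22.1, 14.2 and 19.0 in those of KO2. The control mean was carried by replicate 2, and the nearest control and KO1 libraries were 28.05 and 27.1 CPM. MT1F, a low-abundance isoform here, ranged from 1.40 CPM (ACTB-WT replicate 3) to 12.1 (Actin KO replicate 1). Its ACTB-WT libraries (5.05, 4.53 and 1.40 CPM) lay below its ACTB-mut libraries (7.86, 11.3 and 11.5), and the SETD3 groups overlapped at means of 6.24 to 7.30 CPM.

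MT1G, an isoform otherwise known from liver, kidney and gut, had a count in 8 of 18 libraries and at most 15.5 counts, in ACTB-WT replicate 3. MT1M had 1.08 counts in 1 library, the same one, and none in the other 17. A count of 0 allows up to 3 counts, or 0.245 CPM in the deepest library (SETD3 KO2 replicate 3) and 0.947 CPM in the shallowest (SETD3 KO2 replicate 1). These floors, like the Poisson interval given for SLC30A1, cover counting error only. Both genes fell under the filter on low counts, so 6 of the 8 members were tested.

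**Figure D2:**
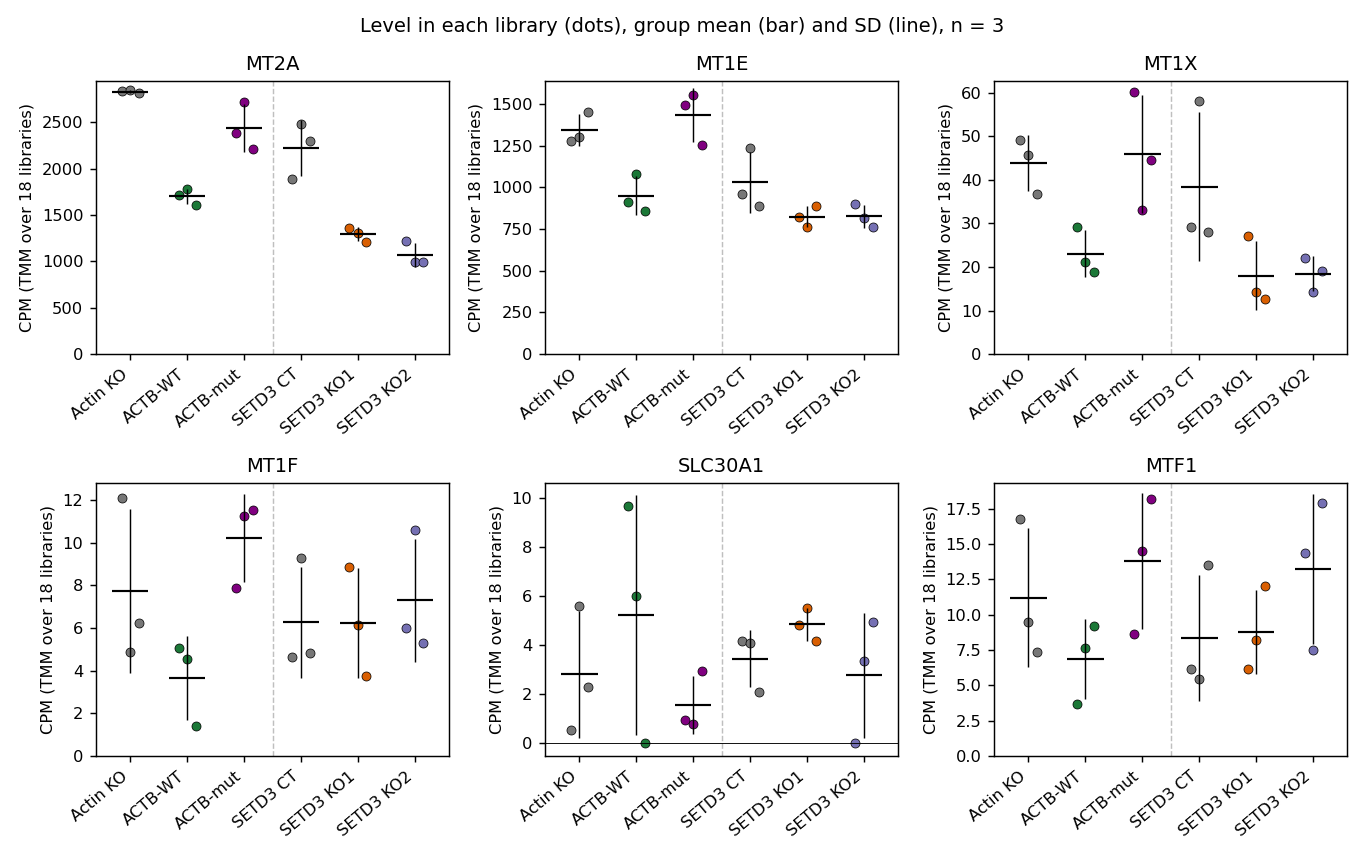
CPM of the 6 tested members in each library (dots) with group mean (bar) and SD (line, n = 3); the dashed line parts the actin table from the SETD3 table. For MT2A, MT1E and MT1X the ACTB-WT dots sit below those of Actin KO and ACTB-mut; SLC30A1 and MTF1 show wide spread within groups.

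SLC30A1, the zinc exporter, was rare and erratic. The Actin KO libraries read 0.539, 5.63 and 2.30 CPM, the ACTB-WT libraries 9.70, 6.01 and 0, and the ACTB-mut libraries 0.971, 0.797 and 2.95. The SETD3 CT libraries read 4.18, 4.10 and 2.11 CPM, the KO1 libraries 4.85, 5.54 and 4.18, and the KO2 libraries 0, 3.36 and 4.97. Replicates of 1 group thus held both the highest value of all and a 0. The highest was 48 counts in ACTB-WT replicate 1, with an exact 95% Poisson interval of 7.15 to 12.9 CPM. The 0 was in ACTB-WT replicate 3, where the same interval reached 0.647 CPM and the floor was 0.526 CPM. That spread exceeded counting error. A difference of the size seen in MT2A was not detectable for SLC30A1 with 3 libraries.

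MTF1, the metal-sensing activator, stood at 16.8, 9.47 and 7.37 CPM with the empty construct, at 3.68, 7.64 and 9.18 with ACTB-WT, and at 8.65, 14.5 and 18.2 with ACTB-mut. The SETD3 CT libraries read 6.16, 5.44 and 13.5 CPM, the KO1 libraries 6.15, 8.20 and 12.0, and the KO2 libraries 14.4, 7.50 and 17.9. Groups overlapped in every comparison. As a description, Pearson r of MTF1 with MT2A on the log2 scale was 0.01 over 18 libraries, made of 0.49 in the actin table and -0.39 among the SETD3 libraries. MT2A tracked MT1E (r = 0.86) and MT1X (r = 0.84) over the 18. The correlation of MT2A with MT1F was 0.24 and with SLC30A1 -0.18. These points share libraries, groups and, for the metallothioneins, similar sequence.

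ACTB-WT against Actin KO compares libraries labelled as over-expressing wild-type actin with those of the empty construct. MT2A fell by 0.73 on the log2 scale (SE 0.09, adjusted p = 5.45e-04, edgeR quasi-likelihood test with Benjamini-Hochberg adjustment), a 1.66-fold lower level. It was the 1 called member of 6 tested, against 0.677% of all 13882 genes called lower. MT1E had a log2 difference of -0.50 (SE 0.11, adjusted p = 0.0506). MT1X stood at -0.93 (SE 0.27, adjusted p = 0.157) and MT1F at -1.08 (SE 0.59, adjusted p = 0.539). SLC30A1 was at 0.88 (SE 1.23) and MTF1 at -0.71 (SE 0.49), neither called. The median log2 difference of the 6 tested members was -0.72, against -0.01 over all genes. MT2A kept its call under all 13 alternatives that leave its row separate, with an adjusted p of at most 0.00544. MT1E passed in 5 of 13, at 0.00525 without the count filter, 0.0377 with GC and length offsets, 0.00674 in DESeq2, 0.0495 in limma-voom and 0.0431 without ACTB-WT replicate 2.

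ACTB-mut against Actin KO makes the same comparison for the H73A form. None of the 6 tested members passed, against 0.922% of genes called in either direction. Over all genes, 1597 of 13882 had an unadjusted p below 0.05 in edgeR, and of the members MT2A was under it. MT2A stood at -0.20 on the log2 scale (SE 0.09, 95% interval -0.38 to -0.02, adjusted p = 0.415) and MT1E at 0.11 (SE 0.11, interval -0.12 to 0.33). MT1X was at 0.08 (SE 0.27) and MT1F at 0.41 (SE 0.57). Log2 differences over 3847 genes had r = -0.34 with GC content here, and with GC and length offsets MT2A was at -0.11 (adjusted p = 0.839). DESeq2 and limma-voom called none of the members either. The members' median was 0.09 and that of all genes 0.03. Both comparisons with Actin KO share its 3 libraries.

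ACTB-mut against ACTB-WT sets the 2 add-backs against each other. MT2A rose by 0.53 (SE 0.09, adjusted p = 0.0101) and MT1E by 0.60 (SE 0.12, adjusted p = 0.0171), 1.45-fold and 1.52-fold higher in ACTB-mut. They were the 2 called members, against 0.634% of genes called higher. MT1X stood at 1.00 (SE 0.27, adjusted p = 0.103), MT1F at 1.49 (SE 0.59, adjusted p = 0.314) and MTF1 at 1.02 (SE 0.49, adjusted p = 0.431). MT1X passed without the count filter (0.0272) and in DESeq2 (0.0262). SLC30A1 went the other way at -1.72 (SE 1.26, adjusted p = 0.675). The members' median was 0.80, against 0.03 over all genes. MT2A lost its call only in 1 fit over all 18 libraries (adjusted p = 0.0864). MT1E lost it there (0.0842) and without ACTB-mut replicate 1, ACTB-mut replicate 2, ACTB-WT replicate 1 or ACTB-WT replicate 3, up to 0.087. In this comparison log2 differences over 3847 genes had r = -0.26 with GC content. With GC and length offsets MT2A was at 0.61 (adjusted p = 0.00683) and MT1E at 0.55 (adjusted p = 0.0273).

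**Figure D3:**
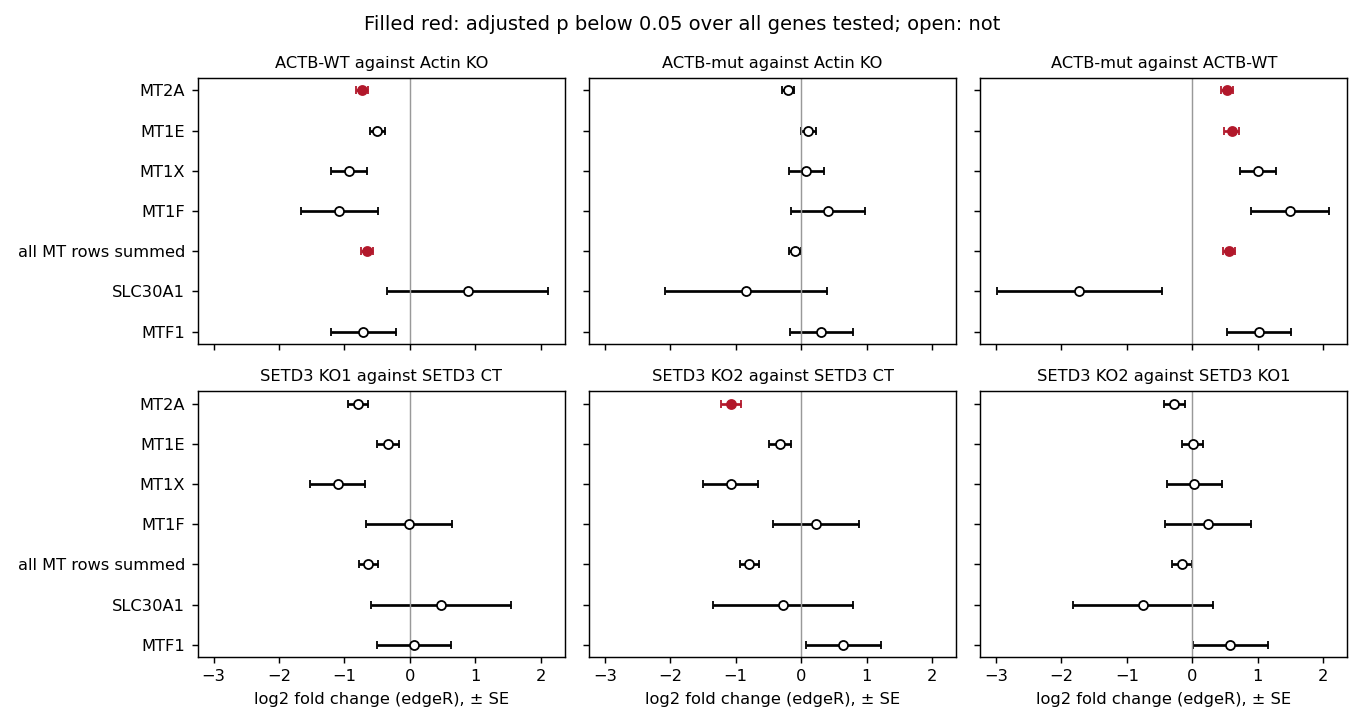
Log2 fold change with SE of each tested member and of all metallothionein rows summed, in 6 comparisons; red points have an adjusted p below 0.05 over all genes. MT2A is red in 3 panels and MT1E in 1, and the SE of SLC30A1 exceeds 1 in each panel.

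The libraries labelled as knockouts of the actin methyltransferase were compared with SETD3 CT. In KO2, MT2A fell by 1.07 (SE 0.16, adjusted p = 0.0249), 2.10-fold lower, the 1 called member against 0.0361% of 13846 genes called lower. In KO1, MT2A stood at -0.80 (SE 0.16, adjusted p = 0.199) and was 15th by p among all genes; none of the 6 tested members was called, against 0.0144% of genes. There 796 genes had an unadjusted p below 0.05 in edgeR, MT2A and MT1X among them. DESeq2 called MT2A in KO1 (adjusted p = 0.00559), as did the fit without the count filter (0.0189) and that over 18 libraries (0.00806). For the mean of both knockouts MT2A fell by 0.93 (SE 0.13, adjusted p = 0.0247), the 1 called member against 0.0361% of genes called lower.

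The MT2A call in KO2 rested on few libraries. It was lost without SETD3 CT replicate 2 (adjusted p = 0.133), SETD3 CT replicate 3 (0.207), KO2 replicate 2 (0.213) or KO2 replicate 3, the library labelled HCT-117 (0.133), and with GC and length offsets (0.0567). The difference itself stayed between -1.17 and -0.98 when any 1 library was left out. For the mean of both knockouts the call remained in 1 of 9 such fits, that without KO2 replicate 1, and the adjusted p reached 0.29 in the others.

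MT1E stood at -0.33 (SE 0.17) in both KO1 and KO2 against SETD3 CT, with adjusted p of 0.905 and 1.00. MT1X was at -1.10 (SE 0.42) in KO1 and -1.07 (SE 0.42) in KO2, neither called, and without SETD3 CT replicate 2 these became -0.68 and -0.65. MT1F was at -0.02 and 0.23, SLC30A1 at 0.48 and -0.28, and MTF1 at 0.06 and 0.64, all with SE of 0.57 or more. The members' median was -0.17 in KO1 and -0.30 in KO2, against -0.02 and -0.01 over all genes. Both comparisons share the 3 control libraries. Directly between the knockouts no member was called, against 0.0289% of genes; MT2A was at -0.27 (SE 0.16, 95% interval -0.58 to 0.03) and MT1E at 0.00 (SE 0.17, interval -0.32 to 0.33). At an unadjusted p below 0.05, edgeR had 670 genes and no member in that comparison, and DESeq2 called no member.

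Because metallothionein sequences are alike, counts were also taken over the family. Of 50-base windows of each gene's longest coding transcript, 95.1% were unique to MT2A, 89.4% to MT1E, 96.4% to MT1F, 85.7% to MT1G and 92.9% to MT1M. For MT1X it was 44.2%. The other windows of that MT1X transcript occur in AC026461.1, whose row was 0 in all 18 libraries, and windows of MT2A, MT1F and MT1G also occur in MT1X transcripts. How the counting divided shared reads was not tested, so differences among the rare isoforms are uncertain. With all 20 rows summed into 1, the family fell by 0.66 (SE 0.09, adjusted p = 0.00127) in ACTB-WT against Actin KO and rose by 0.56 (SE 0.09, adjusted p = 0.0067) in ACTB-mut against ACTB-WT. ACTB-mut against Actin KO gave -0.09 (SE 0.09, adjusted p = 0.804). In SETD3 KO1 the sum stood at -0.63 (SE 0.15, adjusted p = 0.423), in KO2 at -0.79 (SE 0.15, adjusted p = 0.127) and for their mean at -0.71 (SE 0.12, adjusted p = 0.104). The SETD3 calls were thus made for the MT2A row and not for the sum. The 95% interval of the sum was -1.08 to -0.50 in KO2 and -0.95 to -0.47 for the mean. MT2A is itself a large part of the sum, and whether row and sum differ was not tested.

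MT1E counts per 100 MT2A counts averaged 47.5 ± 3.6 (SD, n = 3) with the empty construct, 55.9 ± 4.3 with ACTB-WT and 58.9 ± 3.3 with ACTB-mut. The SETD3 control averaged 46.5 ± 6.7, KO1 64.2 ± 8.2 and KO2 77.7 ± 4.5. Among the 6 pairs of groups within a table, 5 did not overlap, each with an exact two-sided permutation p of 0.1, the smallest that 3 against 3 can give (0.12 adjusted over 6). ACTB-mut and ACTB-WT overlapped (exact permutation p = 0.5). This ratio was chosen after the values were seen. The transcripts differ in GC content, 63.0% for MT2A and 53.5% for MT1E, and its part in the ratio was not tested.

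**Figure D4:**
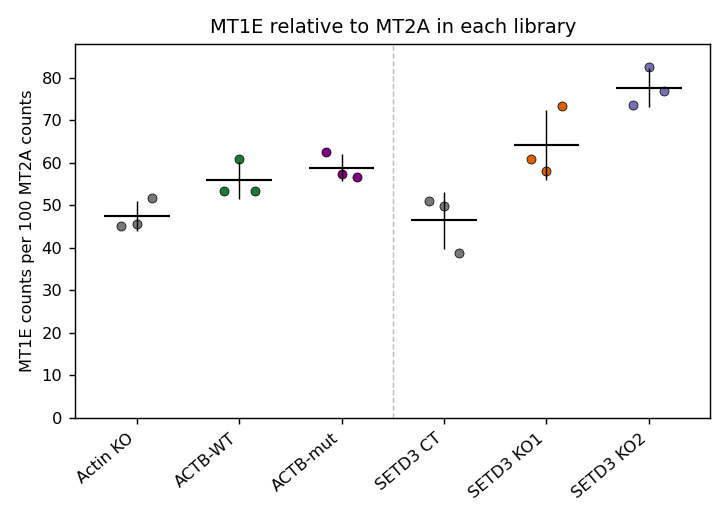
MT1E counts per 100 MT2A counts in each library (dots) with group mean (bar) and SD (line, n = 3). SETD3 CT and Actin KO average 46.5 and 47.5; KO1 and KO2 average 64.2 and 77.7, above all SETD3 CT libraries.

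Other routes of zinc, copper, iron and stress responses were read from gene lists that are no members. Of the other zinc exporters (ZnT) 7 and of the zinc importers (ZIP) 10 were tested in the actin table, and no gene of either list was called in any of the 7 comparisons. Of 119 edgeR tests on these lists, 6 had an unadjusted p below 0.05. Other tools were not read for the lists. Over all genes, edgeR called 128 to 172 of 13882 in the actin comparisons and 2 to 8 of 13846 in the SETD3 ones. An unadjusted p below 0.05 was held by 1559 to 1666 and by 670 to 796 genes. Calls are so few that their absence in short lists does not show that these genes stayed unchanged. The most abundant importer was SLC39A4 (ZIP4), the intestinal zinc uptake transporter, at 263 CPM over all libraries. Its mean was 237 ± 27.8 CPM with the empty construct, 276 ± 54.3 with ACTB-WT and 182 ± 20.3 with ACTB-mut, and its log2 difference was -0.59 (SE 0.16, adjusted p = 0.0863) in ACTB-mut against ACTB-WT. The most abundant exporter was SLC30A5 (ZnT5), which loads zinc into the secretory pathway, at 19.2 CPM. The importer SLC39A10 averaged 0.177 CPM. No other metallothionein row and no glucocorticoid target passed in any comparison (1 of 58 edgeR tests under an unadjusted p of 0.05).

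Among 10 tested copper-handling genes, 2 fell in ACTB-WT against Actin KO and 2 rose in ACTB-mut against ACTB-WT, the same 2 genes. Of all genes, 0.677% were called lower in the first comparison and 0.634% higher in the second. ATOX1, the copper chaperone for the secretory pathway ATPases, fell by 0.97 (SE 0.18, adjusted p = 0.0109) and rose by 0.95 (SE 0.18, adjusted p = 0.0134). SOD1, the copper-zinc superoxide dismutase, fell by 0.81 (SE 0.11, adjusted p = 9.82e-04) and rose by 0.98 (SE 0.11, adjusted p = 4.04e-04). These comparisons share the ACTB-WT libraries. ATOX1 read 76.4, 86.4 and 80.0 CPM in ACTB-WT against 140 to 188 in Actin KO and 133 to 197 in ACTB-mut, and SOD1 read 344 to 390 CPM in ACTB-WT against 603 to 778 in the other 2 groups. No other gene of the list was called there, and the list's median was 0.28 and 0.23.

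NRF2 targets answer oxidants and electrophiles. Of 15 tested, none passed in ACTB-WT against Actin KO, where 0 had an unadjusted p below 0.05 in edgeR. Over all 13882 genes, 155 were called there and 1559 had an unadjusted p below 0.05. In ACTB-mut against Actin KO, where 0.324% of all genes were called higher, 2 rose, NQO1, a quinone reductase (0.63, SE 0.14, adjusted p = 0.0477), and TXNRD1, thioredoxin reductase (0.65, SE 0.13, adjusted p = 0.0237). In ACTB-mut against ACTB-WT, where 0.634% of all genes were called higher, 3 rose. They were NQO1 (0.71), TXNRD1 (0.79) and GCLM, a subunit of the glutathione-synthesis enzyme (1.17, SE 0.24, adjusted p = 0.0217). The median log2 difference of the NRF2 list was -0.10, 0.58 and 0.56 in these comparisons, in the order given. Over all genes it was -0.01, 0.03 and 0.03. TXNRD1 read 368 to 448 CPM in ACTB-mut, above the 216 to 280 CPM of Actin KO and ACTB-WT. Of 7 iron genes FTL, the ferritin light chain, rose in ACTB-mut against Actin KO (0.79, SE 0.14, adjusted p = 0.015), and of 12 heat shock genes HSPB1 did (0.43, SE 0.08, adjusted p = 0.0203). No gene of the copper, iron, NRF2 and heat shock lists was called in the SETD3 comparisons, where 10 of 180 edgeR tests had an unadjusted p below 0.05. Over all 13846 genes, edgeR called 2 to 8 in these comparisons, and 670 to 796 had an unadjusted p below 0.05.

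**Figure D5:**
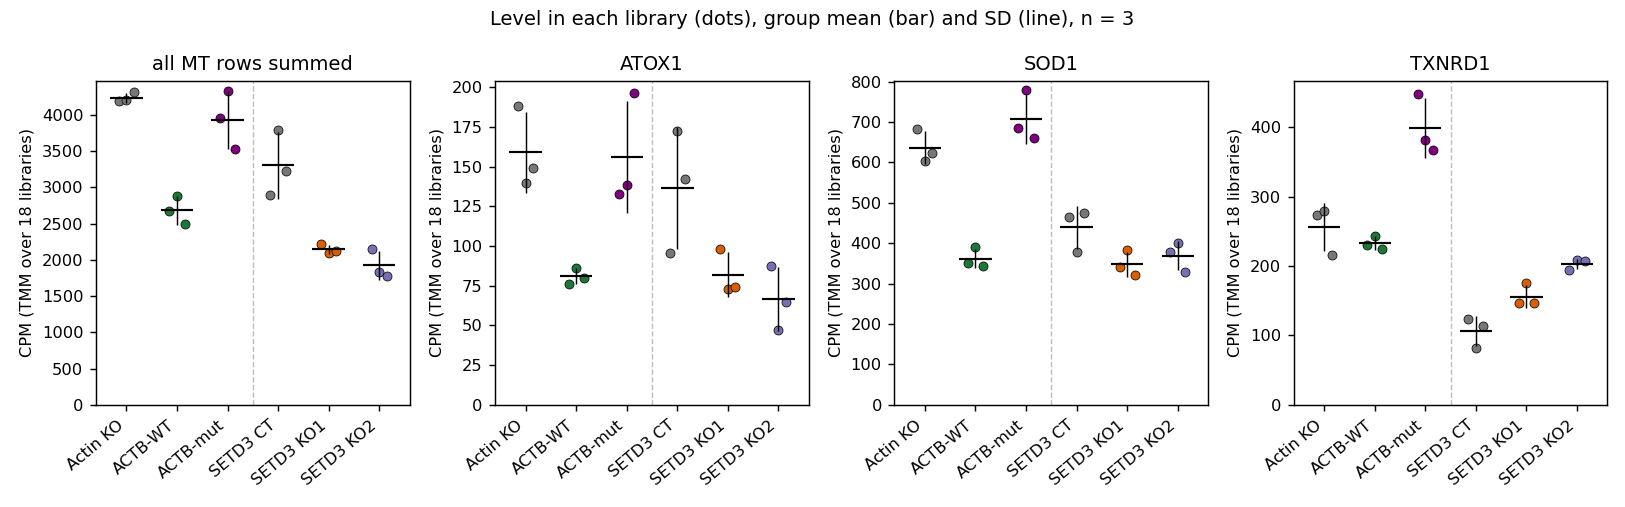
CPM of all metallothionein rows summed, ATOX1, SOD1 and TXNRD1 in each library (dots) with group mean (bar) and SD (line, n = 3). The summed rows, ATOX1 and SOD1 are lowest in ACTB-WT within the actin table; TXNRD1 is highest in ACTB-mut.

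Across the 18 libraries, the genes outside the family whose log2(CPM + 1) was most like that of the summed metallothionein rows, among 9118 genes of at least 5 CPM, were IER3 (r = 0.91), ATOX1 (0.88), USP4 (0.88), SPARC (0.85) and SOX9 (0.84). Within the actin table r was 0.73, 0.82, 0.79, 0.82 and 0.91 for these genes, and among the SETD3 libraries it was 0.93, 0.93, 0.84, 0.67 and 0.74, over 9 libraries each. All share the libraries and their group structure. Because these genes were picked by likeness in the same libraries, their differences are a description and no separate support. In ACTB-WT against Actin KO, IER3, an immediate early gene, fell by 0.69 (SE 0.12). SOX9, an intestinal crypt transcription factor, fell by 1.50 (SE 0.27). ATOX1 fell by 0.97 (SE 0.18) and SPARC by 2.69 (SE 0.21). USP4 stood at -0.51 (SE 0.26) and was not called (adjusted p = 0.498, edgeR). SPARC, a matricellular glycoprotein, had its highest mean in ACTB-mut at 659 ± 90.02 CPM, against 205 ± 39.6 in Actin KO, where the metallothionein sum was highest at 4231 ± 68.6. MTF1 ranked 4174 of the 9118 genes (r = 0.05), with r of 0.50 in the actin table and -0.41 among the SETD3 libraries. In bulk RNA, fewer cells with high metallothionein and less RNA per cell cannot be told apart.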

How the data were processed

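Poly(A) RNA-seq of 18 HCT-116 libraries was used as 2 deposited tables of 60683 gene rows. Per the submitters' processing notes, the authors used Trim Galore 0.4.5, cutadapt 1.15, Bowtie2 and RSEM 1.2.28 on GRCh38. The deposited values are RSEM expected counts per gene, not normalized, and 83.6% were whole within 0.005. RSEM divides reads that match several genes, which bears on near-identical metallothioneins. The annotation release and strand setting are not given in the sources used here.

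Counts were rounded to whole numbers. Each table was fitted with its 3 groups in edgeR 4.0.16 (R 4.3.3) with filterByExpr, TMM and robust quasi-likelihood tests, two-sided. This gave 7 comparisons over 13882 (actin) or 13846 (SETD3) genes. Benjamini-Hochberg adjustment covered all genes tested, with calls at an adjusted p below 0.05. SE was taken as the size of the log2 fold change over the root of its F statistic. Levels used TMM over all 18 libraries. The code was tested on simulated data. Alternatives were DESeq2 1.42.0, limma-voom (limma 3.58.1), RLE factors, no filter, GC and length offsets, a replicate term, 1 fit over 18 libraries, summed metallothionein rows and each library left out.

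Genes named were all members, called genes of the lists, SLC39A10, the most abundant importer and exporter, and the 5 genes most like the summed family. The members, lists and tests were chosen with earlier results of these data known. No pair of libraries within a group agreed within sampling noise.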

Additional observations from a re-analysis of the deposited data

Results flagged for a closer look

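The results for 2 members differed between groups that share a contrast. The effect on MT2A against Actin KO was -0.73 on the log2 scale for ACTB-WT and -0.20 for ACTB-mut. The difference between them, tested as ACTB-mut against ACTB-WT, was 0.53 (SE 0.09, adjusted p = 0.0101, edgeR). The 3 ACTB-mut libraries were all higher than the 3 ACTB-WT libraries. For MT1E the effects were -0.50 and 0.11, and the difference was 0.60 (SE 0.12, adjusted p = 0.0171), again with no overlap. Both effects use the same Actin KO libraries.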

How the results depend on the processing

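Every member call named in the report kept its direction under every alternative run. Of 486 recomputed values of uncalled members, 41 changed sign. Counts of called members moved as follows. ACTB-WT against Actin KO had 2 called (MT2A and MT1E) without the filter, with GC and length offsets, in DESeq2 and in limma-voom. ACTB-mut against ACTB-WT had 0 in 1 fit over 18 libraries and 3, with MT1X added, without the filter and in DESeq2. SETD3 KO1 against CT had 1 without the filter, in DESeq2 and in the 18-library fit. KO2 against CT and the mean of both knockouts had 0 with GC and length offsets. Leaving out each library gave 1 to 2 called members in ACTB-WT against Actin KO, 0 to 0 in ACTB-mut against Actin KO, 1 to 2 in ACTB-mut against ACTB-WT, 0 to 0 in KO1, 0 to 1 in KO2, 0 to 0 between the knockouts and 0 to 1 for their mean. The cause was not tested.

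Counts of called genes, in the order ACTB-WT against Actin KO, ACTB-mut against Actin KO, ACTB-mut against ACTB-WT, KO1, KO2, KO2 against KO1 and the mean, were 155, 128, 172, 2, 8, 4 and 6. They were 320, 371, 402, 58, 68, 58 and 85 without the filter, 445, 437, 533, 91, 109, 73 and 116 in DESeq2, and 64, 35, 45, 21, 34, 19 and 27 in the 18-library fit. Limma-voom gave 89 in ACTB-WT against Actin KO and 9 between the knockouts. GC and length offsets gave 7 in KO1 and 10 for the mean. Leaving out each library gave 79 to 106, 34 to 77, 60 to 129, 0 to 4, 3 to 7, 3 to 5 and 0 to 7.

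The labels do not say whether replicate numbers pair the libraries. Deviations of same-numbered libraries had r of -0.16 to 0.11 in the actin table and -0.50 to 0.22 in the SETD3 table. These values show no regular likeness by number but cannot exclude pairing. With the replicate number as a block, called members in KO2 and in the mean were 0, and called genes were 89, 85 and 83 in the actin comparisons and 0, 1 and 0 in KO1, KO2 and the mean. MT2A in KO2 then had an adjusted p of 0.226. Without TMM factors, 35 of 36 member levels moved by less than 1 SD; MT2A in Actin KO became 2797 CPM. Low counts kept MT1G and MT1M out of the tests.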
